A study of Mus musculus with 12 samples.

Results

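The response of the liver to a methionine- and choline-deficient (MCD) diet was examined in mice that lack Pctp, the gene of phosphatidylcholine transfer protein (PC-TP). Total RNA of whole liver was sequenced from 12 mice, 1 library a mouse, in 4 groups of 3. The 6 libraries compared here were chosen by genotype and diet. They come from 3 Pctp-/- mice (knockout, KO) on chow and 3 Pctp-/- mice on MCD diet, so that every animal compared carries the deletion. The remaining 6, from wild-type (WT) mice on the same diets, serve only to set the knockout response beside that of animals with PC-TP. The deletion is whole-body, the animals of the study were male, and whole liver mixes hepatocytes with every other cell of the organ. Time on diet is not given in the sources used here, and the age, background and fasting that the methods state are not tied there to the mice of this experiment.

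Methionine and choline are both needed to make phosphatidylcholine, the main phospholipid of membranes and of very low density lipoprotein (VLDL). A diet without them fills hepatocytes with triglyceride, since VLDL export needs phosphatidylcholine, and leads to inflammation and early fibrosis, so that it is used as a model of steatohepatitis. Methionine is also an essential amino acid and, as S-adenosylmethionine, the methyl donor of the cell. PC-TP binds phosphatidylcholine and moves it between membranes.

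Expression is given as FPKM (fragments scaled to transcript length and to the number of mapped fragments) for each gene, and every difference below is MCD minus chow on the log2(FPKM + 1) scale with its standard error (SE). That scale understates the change of genes at low FPKM. The 35275 genes of the table were reduced to the 12466 with a mean of at least 0.5 FPKM over the 12 libraries, and a gene was called higher or lower where limma's moderated test gave an adjusted p under 0.05. A gene near 0 in all chow libraries passed that filter only through its MCD values, so lists with such genes lean towards rises. In the KO libraries the deleted gene itself stayed near the floor on both diets. Pctp stood at 0.566, 0.364 and 0.330 FPKM on chow and 0.156, 0.329 and 0.293 on MCD, a difference of -0.17 ± 0.23 that was not called (adjusted p = 0.552). All 6 values lie under the lowest WT library, which had 1.21 FPKM.

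The libraries of the 2 diets differed in quality as well as in diet. Between 82.25 and 83.1% of reads mapped in the KO chow libraries and between 93.04 and 93.16% in the KO MCD libraries, the share of bases at Q30 or better ran from 86.38 to 87.1% against 93.47 to 94.58%, and the GC content of the reads from 50.33 to 51.24% against 48.42 to 49.16%. None of these ranges overlap, and the WT libraries show the same split, so diet and library set cannot be told apart. The depth was alike, with 30486576 to 44898734 uniquely mapped reads on chow and 33463498 to 43577742 on MCD. Within the KO chow group, mouse 1 stood slightly apart, with 40.02% of reads spliced against 35.89 and 34.11%.

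The diet difference of a gene moved with the GC content of its longest transcript. Tested genes were ranked by GC content into 4 equal groups. In the group with the lowest GC content the median difference was 0.33, with 1482 genes higher and 173 lower, and it fell through 0.14 and -0.07 to -0.42 in the group with the highest, where 241 were higher and 1620 lower. Across genes, which are not independent replicates, GC content and the difference had a Pearson correlation of -0.42, whereas transcript length had one of -0.0032. A fit after removing a smooth trend on GC content and length from each library was therefore run beside the main one, and its counts are given beside those of most lists. The part of library quality in the changes below was not tested beyond that fit.

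**Figure D1:**
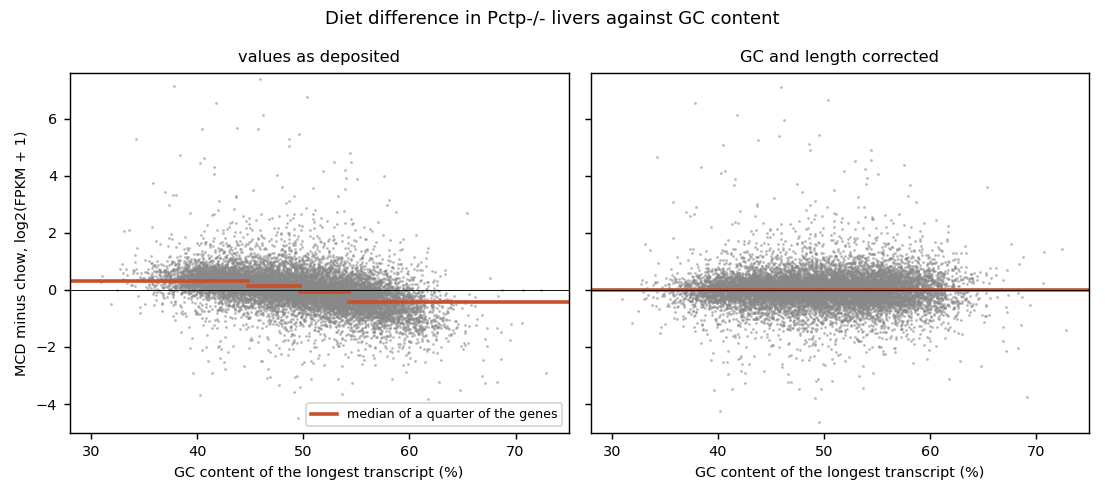
Difference MCD minus chow in Pctp-/- livers on the log2(FPKM + 1) scale (y axis) for each gene (gray points) against the GC content of its longest transcript in percent (x axis, cropped to 28 to 75), as deposited (left) and after GC and length correction (right); 6 and 5 genes lie outside the axes. The red bars, the medians of 4 equal groups of genes, step down from 0.33 to -0.42 on the left and lie near 0 on the right.

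A large share of the liver transcriptome differed between the diets. Of the genes tested, 26.0% were called higher and 24.4% lower in KO mice on MCD diet, 50.3% in either direction, with a median difference over all genes of 0.04. The values of the 3 MCD and 3 chow libraries did not overlap for 59.7% of genes, and 226 called genes did overlap. Far fewer moved by 2-fold or more: 585 genes, or 4.69%, were called and higher by at least 1 on the log2 scale, and 758, or 6.08%, were called and lower by that much. At 4 or more on that scale 23 were higher and 4 lower, and at 5 or more 12 and 3. With the GC and length correction 41.3% of genes were called, which included 566 of the 585 and 685 of the 758, although 397 and 389 of these kept a difference of at least 1. All 65 genes that were called at 3 or more on that scale, 42 higher and 23 lower, were still called after it. In WT mice 57.0% of genes were called for the same diet contrast.

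**Figure D2:**
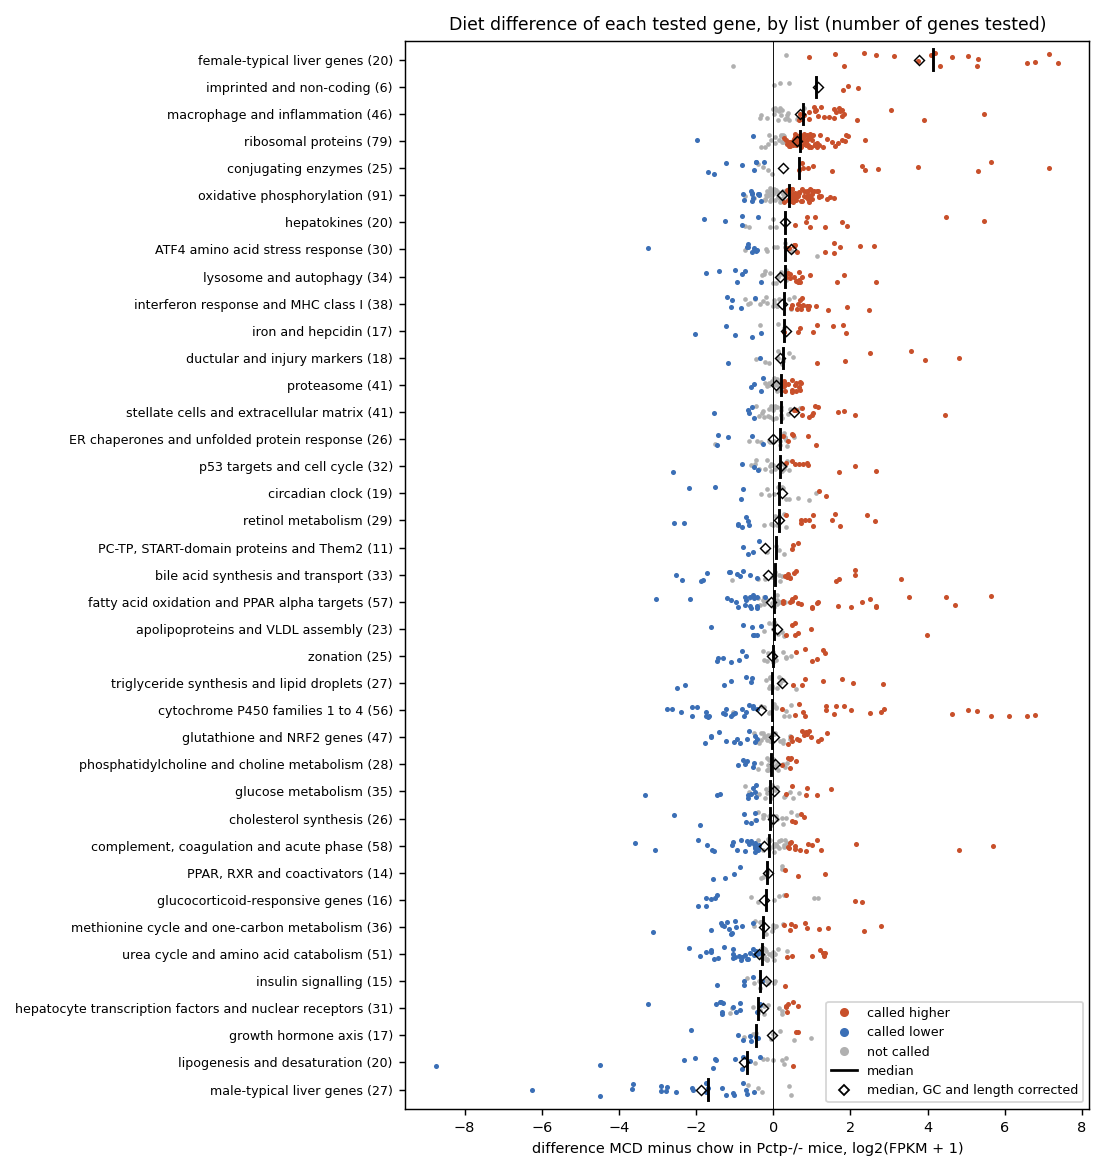
Difference MCD minus chow in Pctp-/- livers on the log2(FPKM + 1) scale (x axis) for every tested gene of the 39 gene lists (y axis, number tested in parentheses), red where called higher, blue where called lower and gray where not called; black bars are medians and open diamonds the medians after GC and length correction. The female-typical list has the highest median, 4.13, which is partly set by the expression filter, and the male-typical list the lowest, -1.69.

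Genes that differ between the sexes in the livers of untreated mice made up many of the largest changes, and their lists had the highest and the lowest median of all 39. Male mice release growth hormone in pulses, which, through STAT5B, keep male-typical hepatic genes on and, through the repressor BCL6, female-typical genes off. In these male knockout mice, 18 of 20 tested genes of the female-typical list were called higher on MCD diet (17 of them by at least 1) and none lower, with a median difference of 4.13, and 22 of 27 of the male-typical list were called lower (18 by at least 1) and none higher, with a median of -1.69. The background is 26.0% higher and 24.4% lower. The GC correction left 17 female-typical genes higher and 24 male-typical genes lower, and WT mice showed 18 and 24. The lists had 26 and 33 genes in the table, of which 6 each were under the filter. Female-typical genes close to silent in all chow libraries passed it only through their MCD values. The female-typical counts and median are therefore partly set by the filter, and the background of all tested genes is not a matched comparison for them.

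The estrogen sulfotransferase Sult1e1 went from 0, 0.182 and 0 to 186, 154 and 117 FPKM (7.15 ± 0.15, adjusted p = 6.1e-11). Cyp2a4, a steroid hydroxylase, read 0.0868, 0 and 0 FPKM on chow and 78.7, 149 and 120.3 on MCD (6.78 ± 0.36, adjusted p = 9.8e-08). These genes were close to silent in every chow mouse and abundant in every MCD mouse. Cyp3a44 was listed at 0 in all 3 chow libraries and stood at 104, 143 and 55.9 FPKM on MCD. Cyp3a41a, another P450 of this family, was likewise listed at 0 on chow and at 20.7, 33.4 and 19.9 FPKM on MCD. For genes at 0 in 1 group the fitted difference depends on the added 1 FPKM, and reads of P450 and sulfotransferase paralogs may be shared between members. Cyp2b9 rose from 10.8, 0.854 and 7.89 to 205, 207 and 266 FPKM (5.28 ± 0.51), Cyp2b13 from 0.344, 0 and 0.479 to 33.4, 38.1 and 53.7 (5.06 ± 0.18) and Sult3a1 from 0.0949, 0 and 0.0660 to 35.5, 34.1 and 55.9 (5.31 ± 0.49). The remaining members were not uniform: Cyp2b10, the P450 that reports the xenobiotic receptor CAR, was lower without passing the test (-1.03 ± 0.43, adjusted p = 0.061), and Cyp2c40 was not called either.

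Among male-typical genes, the pseudogene Serpina4-ps1 fell from 49.3, 322 and 196 to 1.86, 0.588 and 0.619 FPKM (-6.24 ± 0.65, adjusted p = 1.3e-05). The major urinary protein gene Mup3 fell from 5730.3, 6279.8 and 6596 to 477, 469 and 507 FPKM (-3.67 ± 0.15, adjusted p = 1.6e-08), and 11 of the 15 tested members of that cluster were called lower. Their sequences are nearly identical, so the level of any single member is uncertain. The elongase Elovl3 fell from 219, 175 and 168 to 7.48, 11.7 and 4.43 FPKM (-4.48 ± 0.33) and Susd4 from 15.1, 23.0 and 11.4 to 0.196, 0.391 and 0.512 (-3.63 ± 0.22). Hsd3b5, a steroid dehydrogenase, fell by 1.75 ± 0.44, Cyp4a12a, a fatty acid hydroxylase, by 2.10 ± 0.18 and Cyp7b1, an oxysterol hydroxylase, by 2.51 ± 0.26 on the log2 scale. In all of these the chow and MCD mice were fully separated.

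**Figure D3:**
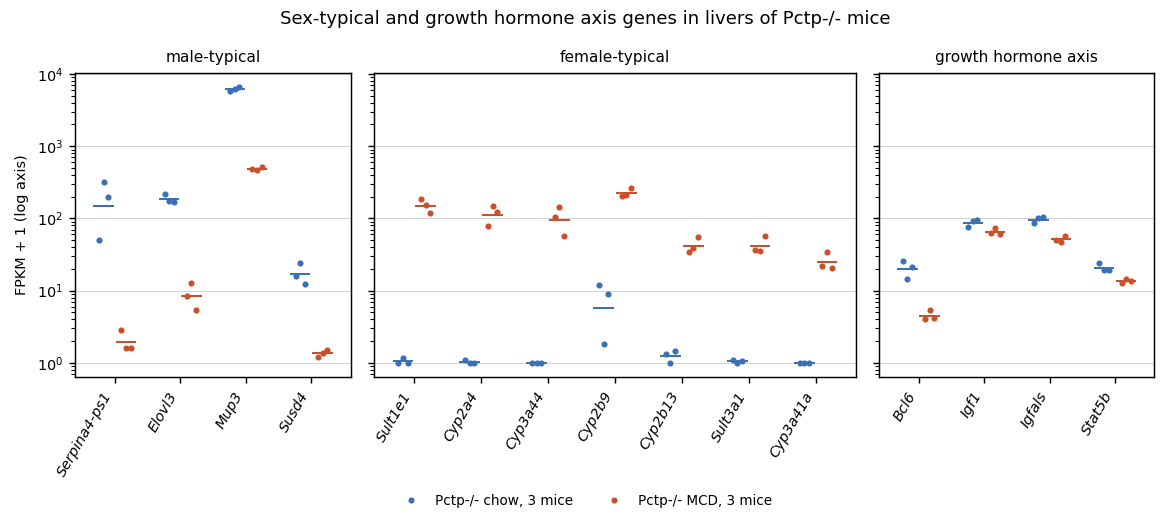
FPKM + 1 (y axis, log scale) of male-typical, female-typical and growth hormone axis genes in each Pctp-/- mouse on chow (blue) and MCD diet (red), 3 mice each, with bars at the geometric mean. The 7 female-typical genes stood at 19.9 to 266 FPKM in the MCD mice, above every chow mouse, and the 4 male-typical genes lie lower on MCD in every mouse.

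The growth hormone axis itself moved less. Of its 17 tested genes 7 were called lower, 1 of them by at least 1, and 2 higher, with a median of -0.44 that became -0.02 with the GC correction, which called 5 lower and 1 higher. Bcl6 fell from 24.4, 13.7 and 20.03 to 3.06, 4.43 and 3.21 FPKM (-2.13 ± 0.23, adjusted p = 1.6e-05). In WT mice, whose values are given below, Bcl6 showed no such fall, although 18 female-typical genes were called higher there too. A part of Bcl6 in their rise was not tested. Stat5b read 22.8, 18.2 and 18.5 FPKM on chow and 11.8, 13.5 and 12.4 on MCD (-0.61 ± 0.14), and the growth hormone receptor Ghr fell by 0.59 ± 0.08. Igf1, the hormone that growth hormone induces in liver, went from 76.1, 90.3 and 94.0 to 62.8, 73.0 and 59.5 FPKM (-0.41 ± 0.13, adjusted p = 0.0182), a call that was lost without chow mouse 2 or 3 or MCD mouse 1 or 3. Igfals, its partner in serum, fell by 0.91 ± 0.19 but was not called after the GC correction. Cish and Socs2, feedback genes of the same pathway, were not called (0.97 ± 0.48 and 0.53 ± 0.62). Higher were the estrogen receptor Esr1 (0.64 ± 0.17) and the prolactin receptor Prlr (0.59 ± 0.16, not called after the GC correction).

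Most genes of fatty acid synthesis fell. Of 20 tested, 12 were called lower, 7 by at least 1, and 1 higher, with a median of -0.69, and the GC correction gave 11 and 1. Scd1, the stearoyl-CoA desaturase, fell from 1782, 1237 and 1121 to 2.22, 1.35 and 3.27 FPKM, the largest fall of all genes tested (-8.73 ± 0.23, adjusted p = 2.8e-10). Fatty acid synthase, Fasn, fell from 153, 75.3 and 68.8 to 16.8, 14.1 and 23.7 FPKM (-2.32 ± 0.27) and Srebf1, the regulator of the pathway, from 159, 114 and 107 to 28.7, 23.2 and 38.5 (-2.04 ± 0.22). Of the 7 enzymes from citrate to palmitate 6 were called lower, and the exception, Acaca, read 0.28 ± 0.16 and was not called. The elongases and desaturases split more evenly: Elovl1 was higher (0.52 ± 0.11), while Fads1, Fads2, Scd2 and Elovl6 were not called.

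Lipid droplet and lipid transport genes moved in both directions. Of 27 tested genes of triglyceride synthesis and droplets 7 were called higher and 7 lower, with a median of -0.02 (0.01 with quantile normalization and 0.22 after the GC correction). That is 51.9% called, near the 50.3% of all tested genes. After the GC correction 9 were higher and 6 lower. Lipoprotein lipase, Lpl, which adult hepatocytes express little, rose from 2.597, 7.17 and 3.90 to 45.2, 42.5 and 25.2 FPKM (2.84 ± 0.32, adjusted p = 2.3e-05). The droplet proteins Cidec (1.098, 3.01 and 2.53 to 13.1, 15.9 and 8.26 FPKM, 2.07 ± 0.36), Plin4 (1.78 ± 0.26) and Plin2 (247, 199 and 217 to 368, 495 and 333 FPKM, 0.83 ± 0.17) rose, as did the lipase inhibitor G0s2 (1.28 ± 0.38, not called without chow mouse 2 or MCD mouse 1). Lower were Fitm1 (53.2, 58.6 and 45.8 to 8.45, 6.68 and 10.4 FPKM, -2.50 ± 0.13), which helps droplets to bud, and the carboxylesterase Ces1d, a triglyceride hydrolase (330.1, 234 and 231 to 43.7, 45.4 and 73.8 FPKM, -2.29 ± 0.20). Of the 9 genes of triglyceride synthesis proper 2 were called, both lower, of which Lpin1 rested on single libraries (-1.10 ± 0.37, overlapping groups, lost without chow mouse 2 or 3 or MCD mouse 1 or 3).

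Of 23 apolipoprotein and VLDL assembly genes 7 were called higher and 7 lower (median 0.01, -0.03 with median-of-ratios scaling; 6 and 4 after the GC correction). Apoa4, which is loaded on triglyceride-rich particles, rose from 30.4, 22.8 and 26.1 to 310.3, 498 and 520.1 FPKM (3.99 ± 0.33, adjusted p = 2.0e-06), and Apoc2, the cofactor of lipoprotein lipase, rose by 0.97 ± 0.15. Mttp, which loads triglyceride onto apolipoprotein B, was not called: it read 74.8, 57.3 and 57.4 FPKM on chow and 57.2, 63.9 and 53.7 on MCD (-0.11 ± 0.12, adjusted p = 0.493). Apob was higher by 0.64 ± 0.21, a call lost after the GC correction and without chow mouse 2 or 3 or MCD mouse 2. Apoa1 (-0.55 ± 0.15) and Apoe (-0.52 ± 0.10) were called lower but not after the GC correction (-0.30 and -0.02), and the remnant receptor Lrp1 was lower in both fits (-1.61 ± 0.17 and -1.05).

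The fatty acid oxidation genes, most of them targets of PPARα, did not move as a block. Of 57 tested, 22 were called higher, 14 by at least 1, and 18 lower, 4 by at least 1, with a median of 0.03 (-0.01 with median-of-ratios scaling and -0.05 after the GC correction). Cyp4a14, a microsomal ω-hydroxylase, rose from 6.23, 2.35 and 19.9 to 334, 619.6 and 305 FPKM (5.65 ± 0.59, adjusted p = 1.4e-05). The fatty acid transporter Cd36 rose from 3.51, 0.984 and 3.82 to 97.2, 106 and 74.1 FPKM (4.72 ± 0.34), the pantetheinase Vnn1 from 0.761, 0.789 and 1.202 to 18.2, 31.0 and 15.6 (3.51 ± 0.22), and the secreted hormone Fgf21 from 1.71, 4.51 and 7.66 to 124, 134 and 83.3 (4.48 ± 0.39). Of 17 genes of mitochondrial oxidation 5 were higher and 6 lower. Of 16 peroxisomal and microsomal genes, which include the ω-hydroxylase Cyp4a14, 5 were higher and 6 lower. Over all tested genes 26.0% were higher and 24.4% lower. The peroxisomal thiolase Acaa1b fell from 707, 733 and 695 to 110.2, 246 and 148 FPKM (-2.16 ± 0.23), and the mitochondrial thiolase Acaa2 from 668, 577 and 567 to 275, 285 and 277 (-1.11 ± 0.09). Acadm, of the mitochondrial spiral, was not called (0.09 ± 0.09). Cpt1a, which admits fatty acids to mitochondria, rose by 0.50 ± 0.15, a call lost without chow mouse 3 or MCD mouse 2.

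The receptors that control these genes were mostly lower or not called. Ppard, the gene of PPARδ, fell from 4.88, 4.46 and 3.72 to 1.62, 1.26 and 0.876 FPKM (-1.26 ± 0.15, adjusted p = 4.3e-05), while Ppara (0.22 ± 0.18, adjusted p = 0.336) and Pparg (-0.33 ± 0.18, adjusted p = 0.151) were not called. Of the 14 PPAR, RXR and coactivator genes 4 were lower and 3 higher (median -0.17), and 3 and 3 after the GC correction. That is 50% called, near the 50.3% of all tested genes. Among the receptors Rxrg was called higher (0.65 ± 0.17, and 0.83 after the GC correction). The partner receptors Rxra (-0.86 ± 0.10) and Rxrb (-1.01 ± 0.18) were lower, Rxrb not after the GC correction, and the coactivator Ppargc1a rose from 1.12, 0.708 and 1.14 to 3.56, 4.81 and 3.85 FPKM (1.35 ± 0.14). Of the 11 genes of a list of PC-TP itself, other START-domain lipid carriers and thioesterases, 4 were lower and 3 higher, all by less than 1 (median 0.07, -0.20 after the GC correction). Stard10, a close relative of PC-TP, fell from 868, 1078 and 990.2 to 557, 569 and 577 FPKM (-0.78 ± 0.11), and Acot13, the thioesterase Them2 that binds PC-TP, was not called (0.29 ± 0.17, adjusted p = 0.171).

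A core of the PPAR response element, GGNCANAGG on either strand, is a DR1 site and was sought in the RefSeq promoters (250 bases before to 50 after the start site, assembly GRCm38.p6). It was present in 9.61% of 27025 genes, 10.4% of the 9282 tested genes with a promoter, and in 18.2% of the list, 8 of its 44 genes with a promoter, of which 3 were called higher, 2 lower and 3 not called. The matching stretch is shown for a gene that rose, the pyruvate dehydrogenase kinase Pdk4 (2.31 ± 0.36, chr6:5496469-5496528, minus strand), and for one that fell, the fatty acid carrier Slc27a2 (-0.92 ± 0.17, chr2:126552775-126552834, plus strand), with the match in capitals and each read 5′ to 3′ along its gene.
Pdk4: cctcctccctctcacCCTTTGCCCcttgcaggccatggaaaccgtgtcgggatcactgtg
Slc27a2: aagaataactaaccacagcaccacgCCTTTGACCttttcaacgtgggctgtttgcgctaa

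The pathways that the diet deprives showed large changes in both directions. Of 36 tested genes of the methionine cycle, transsulfuration and folate metabolism, 10 were called higher, 4 by at least 1, and 13 lower, 9 by at least 1 (median -0.28; 9 and 16 after the GC correction). Mat2a, the S-adenosylmethionine synthetase that responds to low methionine, rose from 22.5, 28.1 and 33.2 to 148, 139 and 149 FPKM (2.35 ± 0.13, adjusted p = 1.1e-07). Mat1a, the synthetase of adult liver, rose from 679, 499.9 and 602 to 836, 909 and 889 (0.57 ± 0.15, adjusted p = 0.00717), a smaller difference on the same scale. Bhmt, which remakes methionine from homocysteine with betaine, rose from 421, 398 and 339 to 968, 1058 and 1087 FPKM (1.43 ± 0.13), and Dmgdh, which takes the next step of betaine breakdown, by 1.196 ± 0.12. Of the 17 methionine cycle genes 8 were higher and 5 lower, and of 7 transsulfuration genes 1 was higher and 3 lower. The glycine methyltransferase Gnmt went from 1695, 1811 and 1774 to 755, 891 and 1019.5 FPKM (-0.996 ± 0.19), the hydrolase Ahcy fell by 1.08 ± 0.14, and cystathionine synthase, Cbs, went from 294, 287 and 282 to 158, 137 and 148 FPKM (-0.96 ± 0.13). The nicotinamide methyltransferase Nnmt rose from 1.62, 1.24 and 0.464 to 11.3, 12.01 and 17.2 FPKM (2.799 ± 0.28). Csad, the decarboxylase that makes taurine from cysteine, fell from 158, 134 and 128 to 17.8, 14.8 and 13.3 FPKM (-3.12 ± 0.18), and Cth, downstream of Cbs, was not called (-0.27 ± 0.19, adjusted p = 0.261).

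Choline and phosphatidylcholine metabolism, by contrast, held changes under 2-fold. Of 28 tested genes 6 were called higher and 6 lower, none by 1 or more (median -0.05, 0.04 after the GC correction). Pemt, which makes phosphatidylcholine from phosphatidylethanolamine with methyl groups of methionine, rose from 385, 341 and 343 to 461, 495 and 528 FPKM (0.47 ± 0.13, adjusted p = 0.00889). Pcyt1a, which sets the rate of the choline route, was not called (0.25 ± 0.14, adjusted p = 0.135), and Pcyt2, its counterpart of the ethanolamine route, fell from 309, 442 and 478 to 208, 199 and 233 FPKM (-0.92 ± 0.15). Chka, the choline kinase, had overlapping groups (20.3, 31.9 and 33.7 against 22.2, 17.2 and 10.0 FPKM), and its call (-0.80 ± 0.31, adjusted p = 0.0475) was lost in a fit of the 6 KO libraries alone, after the GC correction and without chow mouse 2 or 3 or MCD mouse 2 or 3.

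**Figure D4:**
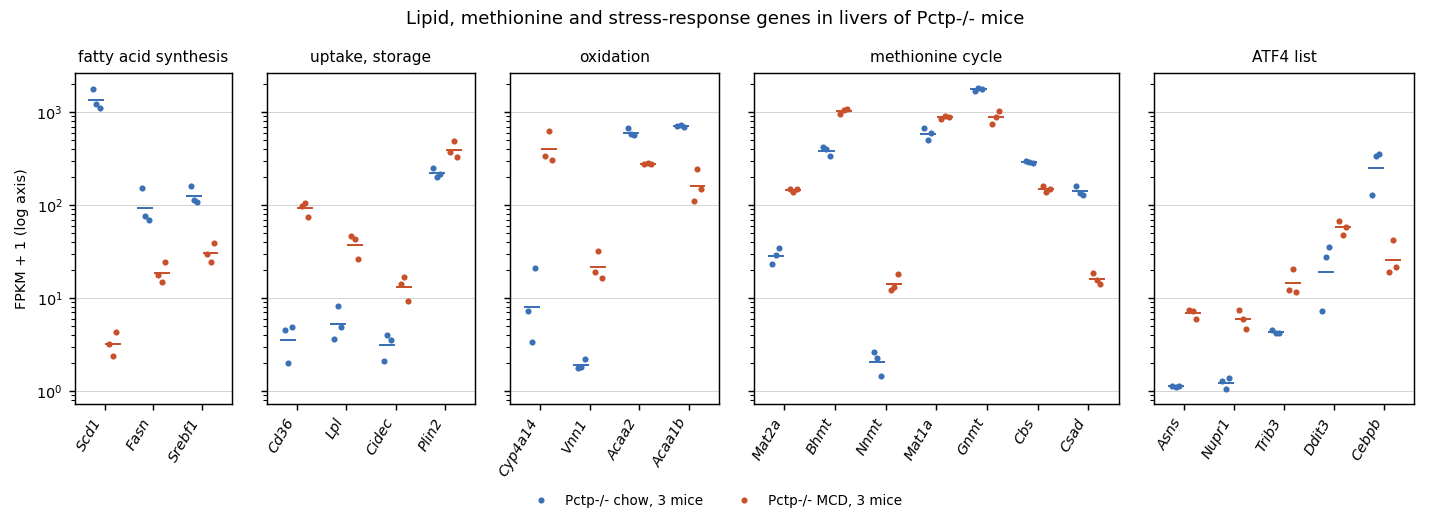
FPKM + 1 (y axis, log scale) of lipid, methionine and amino acid stress genes in each Pctp-/- mouse on chow (blue) and MCD diet (red), 3 mice each, with bars at the geometric mean. Scd1 lies at 1121 FPKM or more on chow and 3.27 or less on MCD, Cd36, Cyp4a14, Mat2a, Nnmt and Asns lie higher on MCD in every mouse, and Acaa2 and Csad lie lower.

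Lack of an amino acid stalls translation through the kinase GCN2 and raises ATF4, which induces genes of amino acid synthesis, transport and transfer RNA charging. Of 30 tested genes of this response 12 were called higher, 6 by at least 1, and 9 lower, 1 by at least 1 (median 0.30; 12 and 4 after the GC correction, median 0.46). The asparagine synthetase Asns rose from 0.123, 0.113 and 0.137 to 6.41, 6.28 and 4.89 FPKM (2.602 ± 0.17, adjusted p = 4.3e-07), the stress regulator Nupr1 from 0.284, 0.0623 and 0.367 to 6.47, 4.95 and 3.60 (2.26 ± 0.29) and the pseudokinase Trib3 from 3.51, 3.16 and 3.21 to 11.2, 19.7 and 10.7 (1.74 ± 0.31). Psat1, of serine synthesis, rose by 1.58 ± 0.20 and Atf5 by 1.34 ± 0.16. Atf4 itself went from 50.9, 68.1 and 71.7 to 103, 90.9 and 97.4 FPKM (0.62 ± 0.16, adjusted p = 0.00671). Ddit3, the proapoptotic factor CHOP, was higher (6.31, 26.4 and 34.3 against 66.8, 47.3 and 57.2 FPKM, 1.58 ± 0.48), but its call was lost after the GC correction and without MCD mouse 1. The members that were lower did not share 1 role. Cebpb, a partner of ATF4, fell from 127, 334 and 354 to 18.2, 41.2 and 20.7 FPKM (-3.25 ± 0.35), and the alanyl transfer RNA synthetase Aars (-0.65 ± 0.10), the stress-induced phosphatase subunit Ppp1r15a (-0.68 ± 0.16) and Sesn2 (-0.65 ± 0.20) were no longer called after the GC correction, Sesn2 also not without chow mouse 1 or MCD mouse 3.

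ATF4 binds the C/EBP-ATF response element, which was sought as TGATGNAAN on either strand. It was present in 4.50% of all 27025 promoters, 2.68% of those of tested genes, and in 36% of the list, 9 of its 25 genes with a promoter. Among the list's genes with a promoter it was held by 6 of the 11 called higher and 1 of the 8 called lower. The stretches around the match, in capitals, are shown for 5 genes that rose and for Aars, which did not, to let the elements be compared: Asns (chr6:7693210-7693257, minus strand), Nupr1 (chr7:126625547-126625606, minus), Pycr1 (chr11:120643817-120643876, minus), Pck2 (chr14:55540137-55540196, plus), Gars (chr6:55037945-55038000, plus) and Aars (chr8:111033704-111033763, plus), from RefSeq on GRCm38.p6, each 5′ to 3′ along its gene and ending at or before the start site.
Asns: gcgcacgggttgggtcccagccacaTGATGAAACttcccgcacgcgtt
Nupr1: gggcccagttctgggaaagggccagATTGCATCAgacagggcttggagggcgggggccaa
Pycr1: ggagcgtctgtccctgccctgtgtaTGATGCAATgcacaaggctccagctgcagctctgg
Pck2: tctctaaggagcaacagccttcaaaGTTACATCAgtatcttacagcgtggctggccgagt
Gars: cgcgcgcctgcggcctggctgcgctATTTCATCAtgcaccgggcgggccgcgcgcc
Aars: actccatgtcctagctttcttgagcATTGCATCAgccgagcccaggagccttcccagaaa
The differences of Pycr1 (0.41 ± 0.12), Pck2 (0.53 ± 0.13) and Gars (0.39 ± 0.10) were small beside those of Asns and Nupr1 given above, and Nupr1 and Aars, which moved in opposite directions, hold the same 9 letters. A match is a description of the letters, not of binding.

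The chaperones and sensors of the unfolded protein response showed no common direction. Of 26 tested genes 6 were higher and 5 lower (median 0.18, -0.02 after the GC correction). The sensor Atf6 rose from 6.93, 5.94 and 6.33 to 15.0, 14.6 and 15.5 FPKM (1.12 ± 0.12), and the chaperone Hspa5 was not called (252, 483 and 507 against 516, 453 and 489 FPKM, 0.30 ± 0.23). In some genes of this list chow mouse 1 lay near the MCD mice and apart from the other chow mice. Sdf2l1 read 24.7, 80.04 and 83.0 FPKM on chow and 18.0, 20.002 and 19.96 on MCD (-1.46 ± 0.38), and Syvn1 17.9, 112 and 107 against 21.1, 19.9 and 23.9 (-1.44 ± 0.56, adjusted p = 0.0472), a call lost with the 6 KO libraries alone, after the GC correction and without chow mouse 2 or 3 or any of the MCD mice. Without MCD mouse 1, 2 or 3 the number of called genes was 7 each time, against 11.

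Genes of glutathione metabolism and of the oxidant-sensing factor NRF2 moved in both directions, with 57.4% called against 50.3% of all tested genes. Of 47 tested, 14 were higher, 3 by at least 1, and 13 lower, 6 by at least 1 (median -0.04; 15 and 16 after the GC correction, median 0.03). Among 19 NRF2 targets 8 were higher and 4 lower. Nqo1, a quinone reductase, rose from 3.33, 2.70 and 1.87 to 6.61, 7.09 and 8.56 FPKM (1.23 ± 0.21), and heme oxygenase, Hmox1, from 18.0, 7.93 and 14.0 to 27.4, 30.1 and 30.5 (1.15 ± 0.24). The cysteine ligase Gclc, which limits glutathione synthesis, was not called (0.16 ± 0.15, adjusted p = 0.373). Of 20 glutathione S-transferases 4 were higher and 7 lower, with Gstp1 at 795, 1614 and 701 FPKM on chow and 300.4, 283 and 361 on MCD (-1.62 ± 0.27) and Gstm6 at 88.6, 88.4 and 77.2 against 31.0, 30.1 and 31.9 (-1.42 ± 0.14). Epoxide hydrolase, Ephx1, fell from 451, 419 and 344 to 108, 116 and 128 FPKM (-1.77 ± 0.14). The antioxidant response element, sought as TGACNNNGC on either strand, was in 14.0% of all promoters, 16.8% of those of tested genes, and in 31.0% of the list (13 of 42), and of the list's genes with a promoter it was in 6 of 13 called higher and 1 of 12 called lower. It is shown in capitals for Prdx1 (0.80 ± 0.11, chr4:116685441-116685500, plus strand), Gstm5 (0.93 ± 0.22, chr3:107895787-107895846, plus) and Nfe2l2 (0.76 ± 0.15, chr2:75704854-75704913, minus), the gene of NRF2 itself, from the same assembly.
Prdx1: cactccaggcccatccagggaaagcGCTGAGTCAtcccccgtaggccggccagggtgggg
Gstm5: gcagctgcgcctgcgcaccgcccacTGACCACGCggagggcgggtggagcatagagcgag
Nfe2l2: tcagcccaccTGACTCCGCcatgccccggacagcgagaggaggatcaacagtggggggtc

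Drug-metabolizing enzymes changed more widely than most lists. Of 56 tested P450 genes of families 1 to 4, 21 were higher, 16 by at least 1, and 23 lower, 15 by at least 1 (78.6% called, median -0.03; 19 and 23 after the GC correction, median -0.31). Beside the female-typical members named above, Cyp2a22 rose from 1.25, 0.617 and 2.30 to 145, 149.8 and 182 FPKM (6.12 ± 0.21). Falls included Cyp2c29 (1098, 896 and 895 to 230.0, 187 and 249 FPKM, -2.11 ± 0.41), Cyp2c67 (193, 209 and 236 to 36.3, 42.9 and 39.9 FPKM, -2.39 ± 0.12), Cyp2u1 (-2.62 ± 0.18) and Cyp3a11, the main drug-oxidizing P450 of mouse liver (-0.99 ± 0.11). Cyp2e1, the ethanol-inducible P450, rose from 2589.6, 2673 and 2391 to 4606, 4498 and 4323 FPKM (0.81 ± 0.20). All 11 tested sulfotransferases were called, 9 higher and 2 lower (median 2.29). The table holds 80 P450 genes and 21 sulfotransferases, and the rest were under the filter. Members near 0 in all chow libraries passed it only where they were high on MCD, so these counts and medians are partly set by the filter. Sult2a6 was listed at 0 in the chow libraries and stood at 47.5, 46.8 and 53.4 FPKM on MCD, and Sult3a2 was at 0 and then at 11.04, 10.8 and 16.5. Of 14 UDP-glucuronosyltransferases 4 were higher and 6 lower (median -0.26), among them Ugt2a3 (105, 94.3 and 101 to 39.0, 40.7 and 47.0 FPKM, -1.23 ± 0.09).

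Bile acid genes divided between synthesis and transport. Of 33 tested 11 were higher and 12 lower (median 0.03, -0.14 after the GC correction). Of the 13 synthetic enzymes 7 were lower and 3 higher. Cyp7a1, the rate-limiting enzyme of the classic route, was not called (38.0, 28.3 and 21.8 against 30.3, 18.0 and 26.7 FPKM, -0.22 ± 0.52, adjusted p = 0.747). Cyp8b1, which makes cholic acid, fell from 237, 175 and 170.2 to 69.6, 57.6 and 48.9 FPKM (-1.71 ± 0.18), and Cyp27a1, of the alternative route, from 318, 308 and 311 to 77.7, 76.8 and 102 (-1.87 ± 0.16). The opposite was seen for Cyp39a1, an oxysterol hydroxylase that rose from 1.43, 1.07 and 2.08 to 21.7, 29.3 and 21.1 FPKM (3.31 ± 0.19), and for the reductase Akr1d1 (1.69 ± 0.13). Of 15 transporters 7 were higher and 4 lower: the canalicular export pump Abcb11 rose (99.7, 89.5 and 94.1 to 120.0, 153 and 141 FPKM, 0.54 ± 0.12), as did the basolateral exporter subunit Slc51b (2.11 ± 0.28), and the uptake carrier Slc10a1 fell (346, 256 and 278 to 109, 147 and 149 FPKM, -1.11 ± 0.33, not called without MCD mouse 1).

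Cholesterol synthesis showed 4 genes higher and 7 lower of 26 tested, fewer calls than the background (42.3%, median -0.08, 0.00 after the GC correction). Of the 11 enzymes from mevalonate to lanosterol 2 were higher and 2 lower in KO mice. Sqle rose by 0.72 ± 0.25, a call lost without chow mouse 2 or MCD mouse 1 or 3, and Scap, the escort of the sterol-sensing factors, fell from 62.2, 63.4 and 55.2 to 13.8, 16.6 and 15.5 FPKM (-1.91 ± 0.12). In WT mice the same 11 enzymes were all called higher (median 1.05), and no gene of the list passed the test of the difference between genotypes.

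Of 29 tested retinol genes 12 were called higher and 8 lower (median 0.14, and 11 and 9 after the GC correction). That is 69.0% called, against 50.3% of all tested genes. The retinol dehydrogenase Rdh9 rose from 3.52, 1.64 and 1.82 to 17.6, 20.8 and 19.01 FPKM (2.64 ± 0.18), while the saturase Retsat fell from 271, 182 and 223 to 33.4, 35.1 and 40.8 (-2.58 ± 0.17). Rbp4, the serum carrier made by hepatocytes, was not called (-0.01 ± 0.10, adjusted p = 0.939).

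Genes of amino acid breakdown were more often lower than higher. Of 51 tested genes of the urea cycle and amino acid catabolism 24 were lower, 11 by at least 1, and 7 higher (median -0.29; 29 lower and 7 higher after the GC correction). Haao, of tryptophan breakdown, fell from 558, 545 and 507 to 143, 145 and 195 FPKM (-1.74 ± 0.17), Prodh2, of hydroxyproline breakdown, from 177, 239 and 245 to 42.8, 47.3 and 51.8 (-2.19 ± 0.13), and the tyrosine aminotransferase Tat from 1044, 997 and 1096 to 286, 567 and 246 (-1.61 ± 0.29). In the urea cycle Ass1 fell from 1876, 1919 and 1649 to 856, 939.6 and 1134 FPKM (-0.90 ± 0.13) and Cps1 was not called (-0.05 ± 0.13). Of the 21 genes of the urea cycle, arginine and proline 5 were higher and 8 lower. Of the higher, Glul, the pericentral glutamine synthetase, went from 254, 242 and 231 to 559, 649 and 626 FPKM (1.33 ± 0.14), Oat rose by 1.29 ± 0.20, and the polyamine genes Sat1 and Odc1 by 1.32 ± 0.14 and 1.203 ± 0.14.

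Of 35 glucose genes 10 were lower and 6 higher (median -0.08), but 7 lower and 10 higher after the GC correction (median 0.02). Gluconeogenesis and glycogen had 8 lower and 4 higher of 15 (6 and 4 after the correction), and glycolysis 2 lower and 2 higher of 20 (1 and 6). Glucose-6-phosphatase, G6pc, fell from 661, 468 and 448 to 32.7, 248 and 15.8 FPKM (-3.32 ± 0.72, adjusted p = 0.00244), and Pck1 read 927, 1362 and 1578 against 272, 1037 and 329 (-1.47 ± 0.43), a call lost without MCD mouse 1 or 3. In both, MCD mouse 2 lay far above the other MCD mice. The same held for the glucocorticoid-responsive genes Errfi1 (79.1, 338 and 69.2 FPKM on MCD), Tsc22d3 (15.9, 47.5 and 19.3) and Dusp1 (17.0, 31.9 and 14.2), for Tat above and for Sds (23.2, 83.3 and 31.4), a set that was picked after its values were seen. Ugp2, of glycogen synthesis, rose from 73.4, 76.3 and 71.2 to 192, 231 and 203 FPKM (1.49 ± 0.09). Of 15 insulin signaling genes 5 were lower and 1 higher (median -0.33; 3 and 1 after the GC correction). Irs2 fell from 27.7, 9.42 and 6.29 to 3.03, 4.74 and 3.49 FPKM (-1.46 ± 0.40), but was not called after that correction.

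Transcription factors of the hepatocyte were more often lower than higher. Of 31 transcription factors and nuclear receptors 14 were lower, 8 by at least 1, and 6 higher (median -0.40), and among 16 hepatocyte factors 11 were lower and 1 higher (7 and 0 after the GC correction). With the GC correction 9 and 3 of the 31 were called, 12 in all against 20, and the count without MCD mouse 2 was 13. Cebpa fell from 394, 551 and 391 to 153, 144 and 174 FPKM (-1.48 ± 0.19, -0.64 after the correction), Foxa3 from 32.0, 57.1 and 48.1 to 17.7, 18.2 and 13.5 (-1.39 ± 0.23) and Hnf4a by 0.87 ± 0.10. Albumin was higher all the same: Alb read 29916, 26955 and 27916 FPKM on chow and 61588, 54602 and 55465 on MCD. Of 25 genes that mark the zones of the lobule 6 were higher and 7 lower (median 0.00, -0.03 with median-of-ratios scaling and -0.04 after the GC correction), with 5 of 13 pericentral genes higher and 2 lower and 1 of 12 periportal genes higher and 5 lower.

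Inflammatory genes rose or were not called. Of 46 tested macrophage and inflammation genes 26 were higher, 19 by at least 1, and none was lower (median 0.76; 21 and 0 after the GC correction). Gpnmb, a glycoprotein of lipid-laden macrophages, rose from 0, 0.0201 and 0.0364 to 51.9, 50.03 and 32.0 FPKM (5.45 ± 0.43, adjusted p = 1.6e-06). The galectin Lgals3 rose from 2.03, 0.914 and 2.49 to 45.6, 39.6 and 34.8 FPKM (3.90 ± 0.36) and lysozyme, Lyz2, from 32.9, 12.2 and 26.5 to 226, 196 and 152 (3.04 ± 0.38). Trem2, a lipid receptor of the same cells, rose by 1.58 ± 0.25 and the integrin Itgax by 1.71 ± 0.30. Genes of resident Kupffer cells were divided. Clec4f read 54.9, 21.9 and 47.2 FPKM on chow and 41.9, 44.5 and 44.2 on MCD, Timd4 3.797, 2.25 and 2.83 against 2.77, 3.39 and 2.79, and Adgre1 3.81, 1.598 and 2.30 against 4.13, 3.67 and 3.12, none of them called. Vsig4, at 12.6, 4.15 and 10.1 FPKM on chow and 19.4, 19.7 and 19.1 on MCD, and Marco, at 3.98, 2.18 and 4.45 against 7.57, 8.55 and 9.29, rose. In whole liver, fewer cells of a type and less RNA per cell cannot be told apart, and nor can more of either. Chemokines rose, with Cxcl1 at 12.1, 23.4 and 11.5 FPKM on chow and 54.0, 90.1 and 73.1 on MCD (2.18 ± 0.37), and Ccl2 at 0.408, 0.417 and 0.631 against 4.22, 2.51 and 4.19 (1.62 ± 0.27). Tgfb1 and Il1b were not called (0.08 ± 0.19 and 0.15 ± 0.45), and Tnf was under the filter.

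Marker lists of other cell types were read in the same libraries. The summed level of 10 Kupffer cell and macrophage markers ran from 96.0 to 245 FPKM on chow and from 355 to 421 on MCD, with 4 of 10 higher, and chow mouse 2 the lowest. That of 10 stellate cell markers ran from 99.5 to 139 against 193 to 213, with 4 higher and 1 lower, and that of 6 neutrophil markers from 0.366 to 3.86 against 6.22 to 14.8. Erythroid markers went the other way, from 405 to 722 on chow to 231 to 276 on MCD, led by Hba-a1. For these 4 lists and for 10 hepatocyte markers, most of whose sum is Alb, the groups did not overlap (2-sided exact permutation p = 0.1, the smallest that 3 against 3 allows). A single gene carried the separation in several lists, as sums without the most abundant marker, computed after the data were seen, show. The macrophage sum without Lyz2 was 83.8 to 212 FPKM on chow and 191 to 203 on MCD, the stellate sum without Dcn was 70.2 to 96.4 against 72.3 to 73.4, and the neutrophil sum without S100a9 was 0.219 to 2.62 against 2.50 to 7.502, all of which overlap. The hepatocyte sum without Alb was lower on MCD, at 15978 to 18376 against 20090 to 20808, and the erythroid sum without Hba-a1 stayed lower. Endothelial, cholangiocyte, T and NK cell, B cell and muscle lists overlapped. At 0 in all 6 libraries were the pancreatic markers Prss2, Pnlip, Cpa1, Amy2b and Ctrb1, and the adipose markers Plin1, Lep and Retn. So were the kidney markers Umod, Kap, Nphs1 and Slc12a1. The other markers of these lists were not: Cela2a read 0.149 to 0.743 FPKM, and Adipoq, Cfd and Slc34a1 reached at most 0.150. The part of cell mixture in the changes was not tested.

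Stellate cell and matrix genes changed in parts, with 43.9% called against 50.3% of all tested genes. Of 41 tested 13 were higher, 7 by at least 1, and 5 lower (median 0.19; 18 and 1 after the GC correction, median 0.53). The elastase Mmp12, made by macrophages, rose from 0.0444, 0.0341 and 0.139 to 25.7, 22.8 and 19.2 FPKM (4.45 ± 0.37), and the proteoglycans Lum from 1.03, 2.50 and 1.93 to 11.7, 11.9 and 9.33 (2.11 ± 0.24) and Dcn from 34.8, 29.3 and 42.3 to 141, 123 and 119.9 (1.83 ± 0.18). Timp1, the protease inhibitor, rose from 0.113, 0.0864 and 0.0783 to 1.69, 0.935 and 0.971 (0.99 ± 0.19). Col1a1, the main fibrillar collagen, was at 0.914, 1.97 and 2.45 FPKM on chow and 1.26, 0.929 and 0.796 on MCD (-0.44 ± 0.33, adjusted p = 0.288), and Acta2, the actin of activated stellate cells, was not called (0.45 ± 0.49). Among 13 collagens 1 was higher and 3 lower (4 higher and 1 lower after the GC correction), of which Col18a1 changed most (396, 383 and 324 to 118, 131 and 126 FPKM, -1.55 ± 0.10, -0.74 after the GC correction). Loxl1, called lower, took the opposite sign after that correction (-0.64 ± 0.15 and 0.13).

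**Figure D5:**
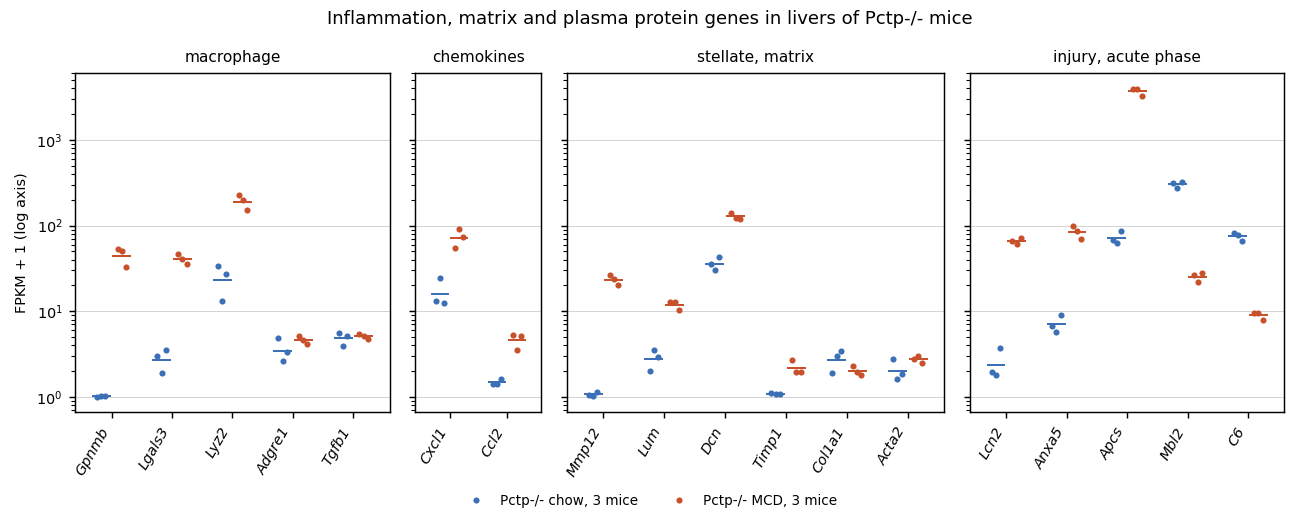
FPKM + 1 (y axis, log scale) of macrophage, chemokine, matrix, injury and plasma protein genes in each Pctp-/- mouse on chow (blue) and MCD diet (red), 3 mice each, with bars at the geometric mean. Gpnmb, Lgals3, Lyz2, Mmp12, Lcn2 and Apcs are higher on MCD in every mouse, Mbl2 and C6 are lower, and Adgre1, Tgfb1, Col1a1 and Acta2 overlap.

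Injury markers rose while ductular markers did not. Of 10 tested injury genes 6 were higher, all by at least 1, and none lower, and of 8 ductular genes none was higher and 2 were lower. Lipocalin, Lcn2, went from 0.941, 0.777 and 2.77 to 64.6, 60.6 and 70.4 FPKM (4.81 ± 0.44), Ly6d from 0.267, 0.307 and 0.744 to 22.2, 26.6 and 14.7 (3.92 ± 0.40), and the annexin Anxa5 from 5.72, 4.68 and 8.12 to 97.6, 84.9 and 69.4 (3.58 ± 0.31). The fetal protein Afp rose by 1.87 ± 0.29. Sox9, of ductular and progenitor cells, fell from 2.42, 6.77 and 6.81 to 1.85, 1.55 and 1.48 FPKM (-1.17 ± 0.27), and Krt19 was not called (-0.20 ± 0.18). Of 23 interferon-response genes 15 were higher and 1 lower (median 0.70; 10 and 2 after the GC correction), with Usp18 at 0.590, 1.42 and 1.52 FPKM on chow and 10.2, 9.49 and 13.7 on MCD (2.49 ± 0.22) and Isg15 at 4.93, 4.84 and 6.40 against 24.8, 16.0 and 29.5 (1.90 ± 0.19). Of 15 MHC and antigen presentation genes 1 was higher and 4 lower, with Tap1 at 7.76, 8.17 and 12.4 against 3.88, 3.26 and 4.53 (-1.08 ± 0.18).

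Plasma proteins of the liver split by class. Of 19 complement genes 10 were lower, 6 by at least 1, and 1 higher (median -0.64), of 19 coagulation genes 9 were lower and 5 higher (median -0.26), and of 20 acute phase genes 9 were higher, 6 by at least 1, and 3 lower (median 0.17). The mannose-binding lectin Mbl2 fell from 315, 276 and 319 to 25.4, 21.004 and 27.3 FPKM (-3.58 ± 0.20, adjusted p = 1.2e-07). Of the components of the membrane attack complex C6 fell from 80.4, 76.8 and 65.8 to 8.58, 8.43 and 6.89 (-3.07 ± 0.12), C9 from 356, 404 and 361 to 92.9, 107 and 86.0 (-1.96 ± 0.12) and C8a from 211, 224 and 194 to 61.7, 73.6 and 54.1 (-1.72 ± 0.15). Serum amyloid P, Apcs, the main acute phase protein of several mouse strains, rose from 66.4, 62.3 and 84.6 to 3912, 3976 and 3275 FPKM (5.70 ± 0.21, adjusted p = 6.2e-09), and Orm2 rose by 2.13 ± 0.35. The usual acute phase genes Saa1 and Saa2 were not called (-0.45 ± 0.39 and -0.11 ± 0.39).

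Of 17 iron genes 8 were higher and 5 lower (median 0.27; 9 and 3 after the GC correction). Hepcidin, Hamp, the hormone that blocks iron export, rose from 2413, 2199 and 2390.5 to 8302, 3116 and 5209.5 FPKM (1.14 ± 0.32, adjusted p = 0.011), and its suppressor Tmprss6 fell from 370.1, 342 and 315 to 160.2, 178 and 175 (-0.995 ± 0.10), as did the iron sensor Tfr2 (-2.03 ± 0.13). Id1, a target of the same signal, was higher by 1.54 ± 0.51, not called without chow mouse 2 or MCD mouse 1. Smad6 was called lower (-0.55 ± 0.18) and took the opposite sign after the GC correction (0.18), and was not called either without chow mouse 1 or 2 or MCD mouse 2 or 3. Among 20 hepatokines 10 were higher, 6 by at least 1, and 5 lower (median 0.32). Beside Fgf21 and Gpnmb, Angptl8, an inhibitor of lipoprotein lipase, rose from 47.5, 56.5 and 67.4 to 269, 138 and 271 FPKM (1.91 ± 0.27) and Lect2 from 78.7, 68.4 and 65.6 to 242, 233 and 261 (1.78 ± 0.13), and Tsku fell from 23.2, 35.0 and 42.9 to 9.10, 11.2 and 6.35 (-1.80 ± 0.31).

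Genes of protein synthesis and respiration were more often higher than lower, mostly by less than 1 on the log2 scale. Over all tested genes 26.0% were called higher, and 4.69% were called and higher by at least 1. Of 79 tested ribosomal protein genes 62 were higher, 19 by at least 1, and 2 lower (median 0.70; 61 and 3 after the GC correction), with Rps29 at 186, 195 and 220.1 FPKM on chow and 892, 1153 and 1115 on MCD (2.38 ± 0.14). Ribosomal genes have many processed copies, so their values depend on how shared reads were assigned, and the share of reads mapped to several places was 4.37 to 4.65% on chow against 6.5 to 7.4% on MCD. Of 91 oxidative phosphorylation genes 50 were higher, 10 by at least 1, and 11 lower (median 0.40; 42 and 12 after the GC correction). The 13 mitochondrially encoded genes changed sides with that correction, from 6 higher and 1 lower to 1 higher and 4 lower. Cyc1 was called lower (-0.56 ± 0.09) and took the opposite sign after it (0.12). Of 41 proteasome genes 17 were higher and 4 lower, none by 1 or more (median 0.20), and 9 in all were called after the correction, which also turned the sign of Psme1 (-0.26 ± 0.10 and 0.04). Of 34 lysosome and autophagy genes 15 were higher, 3 by at least 1, and 7 lower (median 0.30; 13 and 4 after the GC correction), with the cathepsin Ctss at 19.5, 6.47 and 18.98 FPKM on chow and 97.6, 90.4 and 84.2 on MCD (2.66 ± 0.39), Ctsl at 126, 93.2 and 104 against 418, 345 and 398 (1.84 ± 0.14), and the glucosidase Gaa at 47.6, 49.8 and 46.4 against 12.5, 13.9 and 14.3 (-1.75 ± 0.08).

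Of 32 p53 and cell cycle genes 10 were higher and 4 lower (median 0.18). Cyclin D1, Ccnd1, rose from 6.14, 10.9 and 7.45 to 52.97, 56.2 and 57.2 FPKM (2.66 ± 0.23, adjusted p = 3.6e-06), and 6 of 16 proliferation genes were called, all higher. Cdkn1a, the p53 target p21, was not called (5.54, 10.2 and 9.63 against 7.55, 5.62 and 3.24 FPKM, adjusted p = 0.317). Of the 3 growth arrest genes, Gadd45a (2.12 ± 0.39) and Gadd45b (1.69 ± 0.45) rose and Gadd45g fell (107, 123 and 133 to 18.0, 36.6 and 10.5 FPKM, -2.59 ± 0.42). Of 16 glucocorticoid-responsive genes 6 were lower, all by at least 1, and 3 higher (median -0.19). Fkbp5 rose from 3.03, 4.70 and 11.7 to 23.6, 39.7 and 32.9 FPKM (2.29 ± 0.40) and Tsc22d3 fell from 57.9, 89.5 and 115 to 15.9, 47.5 and 19.3 (-1.74 ± 0.35), so that induced genes of this hormone went both ways.

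Of 19 clock genes 4 were lower and 2 higher (median 0.16; 3 and 4 after the GC correction). Nfil3 fell from 40.6, 31.0 and 33.3 to 9.45, 6.56 and 5.14 FPKM (-2.18 ± 0.22), and Nr1d2 (1.17 ± 0.14) and Per3 (0.969, 1.89 and 1.26 to 3.26, 5.16 and 7.28 FPKM, 1.36 ± 0.31) rose. Arntl was called lower (7.70, 6.12 and 6.67 against 5.26, 3.22 and 2.45 FPKM, -0.79 ± 0.28), a call lost without any of the chow mice or without MCD mouse 2 or 3, and Per1 (-1.51 ± 0.51) and Cry1 (-0.84 ± 0.27) were lost without single mice as well, Per1 also after the GC correction (-0.83). Dbp, whose product follows the clock closely, spread from 5.59 to 38.5 FPKM over the MCD mice and was not called. The count of the list was 3 without chow mouse 3 or MCD mouse 3. The E-box CACGTG, the site of the clock factors, was in 8.09% of all promoters, 11.8% of those of tested genes, and in 5 of the 16 of the list, 2 of them called lower and none higher, and the sterol element TCACNCCAC in 1.44% of all promoters, 1.51% of those of tested genes, and 1 of 19 of the cholesterol list. Of 6 tested imprinted genes and their non-coding neighbors 3 were higher and none lower: Rian rose from 0.0922, 0.198 and 0.103 to 4.36, 5.35 and 3.17 FPKM (2.21 ± 0.15), Meg3 from 0.116, 0.414 and 0.337 to 3.57, 5.06 and 3.34 (1.94 ± 0.15) and Cdkn1c from 1.62, 1.38 and 2.01 to 7.82, 7.41 and 9.61 (1.80 ± 0.15).

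Other genes with large falls lay outside these lists. Ces3b, a carboxylesterase, fell from 187, 249 and 195 to 15.6, 18.96 and 22.7 FPKM (-3.40 ± 0.27), the atypical MAP kinase Mapk15 from 30.4, 64.7 and 67.2 to 2.32, 2.39 and 3.27 (-3.84 ± 0.26), the corepressor Irf2bp2 from 57.5, 83.3 and 90.5 to 5.52, 12.1 and 5.17 (-3.25 ± 0.29), and Macrod1, a hydrolase of ADP-ribose, from 61.9, 66.0 and 69.5 to 5.14, 4.43 and 9.86 (-3.23 ± 0.22). In each the 2 groups were fully apart, and the difference was called in WT mice as well.

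The knockout response was set beside that of WT mice, which has its own chow and MCD animals, by a test of the difference between the responses. Of the 1343 genes called in KO mice with a difference of at least 1, 1275 had the same call in WT mice and 67 were not called there, which alone does not show that they differ. The test of the difference itself called 12 genes, or 0.0963% of those tested. At an unadjusted p under 0.05 there were 1884. Bcl6 fell in KO mice as given above, whereas in WT mice it read 4.95, 3.15 and 5.54 FPKM on chow and 4.54, 5.90 and 3.49 on MCD (difference of responses -2.16 ± 0.33, adjusted p = 0.0399). The KO chow values lay above all of these, and the KO MCD values within their range or just under it. Zbtb16, a transcription factor, did the reverse, with 2.27, 3.33 and 3.93 against 3.95, 3.59 and 3.17 FPKM in KO and 19.9, 15.8 and 15.1 against 2.81, 3.28 and 4.47 in WT mice (2.14 ± 0.25, adjusted p = 0.0144).

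Csad fell further in KO than in WT mice, where it went from 166, 119 and 158 to 62.3, 94.9 and 59.2 FPKM (-2.08 ± 0.26, adjusted p = 0.0144). Cyp3a41a rose further, as its WT values on MCD were 4.97, 2.13 and 3.56 FPKM after 0 on chow (2.51 ± 0.31, adjusted p = 0.0144), and so did the neighboring imprinted transcripts Meg3 (WT 0.428, 0.498 and 0.284 to 1.04, 1.03 and 0.643 FPKM, 1.51 ± 0.22, adjusted p = 0.0379) and Rian (1.43 ± 0.21, adjusted p = 0.0399). Cyp2c55 rose in WT mice, from 1.96, 1.61 and 2.16 to 6.97, 9.37 and 8.51 FPKM, and was not called in KO mice at 2.07, 2.45 and 1.84 against 3.47, 1.97 and 1.57. These 12 calls are sensitive to single animals: none remained without KO MCD mouse 2, and 60 genes were called without WT chow mouse 1 or without WT MCD mouse 3. Called in opposite directions in the genotypes were 20 genes, which include Fam25c, Mvd of cholesterol synthesis (-0.76 ± 0.23 in KO, not called after the GC correction or without KO MCD mouse 2, and 0.66 in WT), Per3, Arntl and Klf10. Of the last 4 none passed the test of the difference (adjusted p from 0.0675 for Per3 to 0.117 for Klf10).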

How the data were processed

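RNA of whole liver from 12 mice was sequenced, and the authors deposited a table of FPKM per gene and library, together with a table of read counts and of the percent of reads mapped, spliced and above quality limits. The labels name mm10. The aligner, the counter and whether strand was kept are not given in the sources used here, so genes that overlap another on the opposite strand (3028 of those tested) are uncertain, as are paralogs. The study's Wald test on counts could not be applied to FPKM.

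Genes with a mean of at least 0.5 FPKM over the 12 libraries were kept, and limma 3.58.1 in R 4.3.3 was fitted to log2(FPKM + 1) with 4 group means, the intensity trend on, and Benjamini-Hochberg adjustment over all 12466 genes, after it was tested on simulated data. An adjusted p under 0.05 was called. Each p-value sets a difference against the spread between mice within groups, pooled over the 12 libraries. It does not cover the split of library sets between the diets. Alternatives were a pseudocount of 0.1, no filter or a mean of at least 2 FPKM, quantile normalization, median-of-ratios scaling, the 6 KO libraries alone, GC and length correction, a replicate block, and each library left out in turn. KO chow and KO MCD libraries with the same replicate number did not deviate together (correlations of -0.021, 0.005 and 0.018), so that the numbers showed no pairing of these mice. Pairs with WT libraries were not checked.

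The 316 named genes are the 12 largest rises and 12 largest falls among called genes whose groups did not overlap (no gene models without a symbol or with a Gm or Rik symbol), up to 4 called rises and 4 falls of each of 39 lists, 65 fixed names, the genes called in the difference between genotypes and up to 6 called in opposite directions. Any other gene named was chosen after its values were seen. Members, lists and tests were chosen with earlier results of these data known. GENCODE gave transcript GC content and length, and RefSeq (GRCm38.p6) the promoters, of 250 bases before to 50 after the start site. Python 3.11.15 with pandas 2.3.3 and numpy 2.4.6 made the summaries, and matplotlib 3.10.9 the plots.

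A few genes are not reported here.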

Additional observations from a re-analysis of the deposited data

Results flagged for a closer look

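The response to MCD diet differed between genotypes for 12 genes by limma's test of the difference itself (KO minus WT, on the log2(FPKM + 1) scale, adjusted p under 0.05). The KO response was the lower for Bcl6 (-2.16 ± 0.33), Csad (-2.08 ± 0.26), Fam25c (-1.75 ± 0.28), Cyp2c55 (-1.61 ± 0.26), Ddc (-1.37 ± 0.22), Htatip2 (-0.96 ± 0.15) and Gm49342 (-0.90 ± 0.13). It was the higher for Mug1 (0.95 ± 0.15), Rian (1.43 ± 0.21), Meg3 (1.51 ± 0.22), Zbtb16 (2.14 ± 0.25) and Cyp3a41a (2.51 ± 0.31). Htatip2 read 21.3, 21.7 and 23.1 FPKM in WT chow mice and 85.3, 97.7 and 81.3 in WT MCD mice. Ddc read 26.6, 27.3 and 19.7 FPKM in WT chow mice and 33.8, 31.6 and 28.9 in WT MCD mice. Groups of 3 were too small for the search for outlying mice.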

How the results depend on the processing

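The count of genes changed by the diet in KO mice, 6276, stayed between 5146 (GC and length correction) and 6589 (quantile normalization) under every alternative that kept all mice, and between 5254 and 6302 with a mouse left out. A pseudocount of 0.1 raised the genes changed at least 2-fold from 585 to 1074 higher and from 758 to 1158 lower. The genes that differed between genotypes, 12, were 3 with that pseudocount, 6 with median-of-ratios scaling, 59 with the replicate block, 51 with the block and GC correction, and 0 to 60 with a mouse left out. The block, on numbers that showed no pairing of KO chow with KO MCD mice and were not checked for WT mice, gave 6430 for the KO count. Among lists, the called apolipoprotein genes were 9 without a filter (14), macrophage genes 17 at a mean of at least 2 FPKM (26), imprinted genes 1 at that limit (3), proteasome genes 9 with the GC correction, with or without the block (21), and transcription factors and nuclear receptors 12 with it and 13 with it and the block (20). With a mouse left out the unfolded protein response had 7 to 14 (11), the clock 3 to 7 (6) and those factors 13 to 19 (20). Loxl1 (0.13), Smad6 (0.18), Cyc1 (0.12) and Psme1 (0.036) changed sign with the GC correction, with or without the block. The cause of these shifts was not tested, apart from the fewer genes tested at the higher limit. Counting each named gene under each alternative, 4457 values of the KO difference kept their direction and call, 251 lost the call and 13 gained it. For the 12 genes called between genotypes, 141 such values kept the call and 97 lost it. FPKM holds no counts, so that the precision of low genes is unknown.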
